A study of Mus musculus with 40 samples.

Results

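Hearts of 8 CM-Il11-Tg mice taken 1 week after tamoxifen (1-week hearts) were compared with hearts of 8 CM-Il11-Tg mice that had received no tamoxifen (uninduced hearts). These are 16 of the 40 samples of the series, chosen by their labels, with 4 males and 4 females in each group and 1 polyA RNA library per heart. CM-Il11-Tg mice are heterozygous for *α-MHC-MerCreMer*, a Cre recombinase made in cardiomyocytes and activated by tamoxifen, and heterozygous for *Rosa26-Il11*, a mouse *Il11* cDNA behind a floxed stop cassette. The 1-week mice were given tamoxifen at 20 mg/kg on 5 consecutive days from 8 weeks of age. The uninduced mice carry both transgenes and are labelled as baseline, and their vehicle and their age at collection are not given in the sources used here. Tamoxifen, Cre activation and time therefore change together in this comparison and cannot be told apart. Control hearts, 3 male and 4 female, served as a further reference. Controls carry *α-MHC-MerCreMer* without *Rosa26-Il11* and also received tamoxifen. They too are labelled as baseline, and the labels do not give their time from tamoxifen to collection. The MerCreMer line is on C57BL/6J and the *Rosa26-Il11* line on C57BL/6N. The labels give the tissue as heart, and the study's text names left ventricle. Male and female values stand in separate tables that were scaled separately, so each test was made within 1 table, apart from 1 fit over both tables that compared the male with the female change, and sex cannot be told apart from table.

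IL-11 is a cytokine of the IL-6 family. It binds the receptor IL11RA on stromal and epithelial cells, the complex recruits the shared signal transducer gp130 (*Il6st*), and JAK kinases then activate STAT3 and ERK. STAT3 raises its own inhibitor *Socs3* and, in liver and inflamed tissue, acute phase proteins. In the heart IL-11 is best known from fibroblasts, in which it is linked to matrix production. A mouse that makes the cytokine in cardiomyocytes exposes every IL11RA-bearing cell around them.

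Depth was similar in the groups: 16663513 to 41305404 reads on listed genes in male uninduced libraries, 20345999 to 27755356 in male 1-week libraries, 19147947 to 29345340 in female uninduced libraries and 21738625 to 26546264 in female 1-week libraries. The cardiomyocyte myosin *Myh6* was at 13038 to 26406 CPM in male and 10751 to 20827 CPM in female 1-week hearts, and at 29254 to 33739 and 15771 to 25654 CPM in uninduced hearts. Some libraries stood apart from their group. Female uninduced replicate 3 had the lowest *Mylk4* and the highest *Il11*, *Lrg1* and *Ankrd1* of the female uninduced libraries, so female results that rest on it are given with and without it. Since these values singled it out, larger changes of these genes without it follow from that choice and are no separate support. Male 1-week replicate 4 had the lowest level of the mitochondrial gene *mt-Co1*, 17766 CPM against 46469 to 53155 in the other 1-week males and 48320.0 to 74466 in uninduced males, and the highest *Il11* of its group. Female 1-week replicate 2 held atrial transcripts and male uninduced replicate 1 was high in several inflammatory genes, as described beside the genes concerned. Per-library values below are in CPM (counts scaled by the authors with 1 factor per library) in the order of replicates 1 to 4. Fold changes are differences on the log2(CPM + 0.5) scale with their standard errors, and adjusted p-values are from limma over all genes tested. A gene is said to have risen or fallen, or to be called, only if its adjusted p was below 0.05 and it moved by 1 or more on the log2 scale (the minimum fold).

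*Il11* (ENSMUSG00000004371, chromosome 7 of GRCm39 from 4775372 to 4785858, minus strand) was read first, as the targeted gene. Its reads come from the endogenous gene and the *Rosa26-Il11* transgene alike. In uninduced males it was at 18.4, 23.3, 20.1 and 16.5 CPM and at 1 week at 351, 410.4, 375 and 712, means of 19.6 ± 2.89 and 462 ± 168 (SD, n = 4). The female libraries held 21.2, 21.4, 49.1 and 15.5 CPM uninduced and 461, 447, 414 and 614 at 1 week, means of 26.8 ± 15.1 and 484 ± 89.0 (SD, n = 4). No 1-week library overlapped an uninduced one. The log2 fold change was 4.48 (standard error 0.22) in males. Females showed 4.27 (standard error 0.24), or 4.61 in females without uninduced replicate 3. In the exact permutation test, two-sided, 4 against 4, each sex gave p = 0.0286, the smallest p that this design can reach. Uninduced hearts were not free of the transcript. Control libraries held at most 0.147 CPM in males and 0.166 in females, and the step from control to uninduced was 5.09 and 5.41 on the log2 scale (exact permutation p = 0.0286 in each sex, the smallest possible).

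Of 14 genes of IL-11 receptor and STAT signaling, 2 rose in males and 1 in females, the ligand included, where 4.23% of all genes tested in males and 3.07% in females were called. *Il11ra1*, the receptor subunit that binds IL-11, was at 51.3 to 60.6 CPM in uninduced and 57.7 to 99.1 in 1-week males (0.47, adjusted p = 0.03). Its female ranges were 47.2 to 58.7 and 54.6 to 82.1 CPM (0.28, adjusted p = 0.18). The groups overlapped in both sexes, and reads could be split with the near-identical *Il11ra2*. *Il6st*, which encodes gp130, was at 186, 158, 155 and 178 CPM in uninduced and 254, 248, 281 and 221 in 1-week males, a difference of 0.57 (adjusted p = 0.0013). In females it was 0.65 (adjusted p = 0.0029), and all 8 1-week libraries lay above the uninduced ones of their sex without reaching the minimum fold. *Osmr*, a partner of gp130 in the oncostatin M receptor, rose in males (1.09) and was at 0.96 in females, or 1.33 and past the threshold without uninduced replicate 3. *Jak1* differed by -0.06 and -0.02. *Stat3*, whose product is activated by phosphorylation, which these data do not measure, differed by 0.19 and 0.25 (adjusted p = 0.36 and 0.27).

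MerCreMer contains the ligand-binding domain of the mouse estrogen receptor, so reads on *Esr1* can come from the transgene and from the endogenous gene, and these cannot be told apart. *Esr1* was at 2212, 3024, 2450.2 and 2654 CPM in uninduced and 611, 1455, 1570.1 and 1324 in 1-week males. It fell by 1.14 on the log2 scale (standard error 0.33, adjusted p = 0.021), with every 1-week male library below every uninduced one. Male controls, which carry MerCreMer and received tamoxifen, held 2473 to 3411 CPM. The female values were 2729.8, 2402, 542 and 1858 uninduced and 1173, 1065, 1531 and 1629.7 at 1 week, and the groups overlapped through uninduced replicate 3. The female difference was -0.27 (adjusted p = 0.7), and -0.79 (adjusted p = 0.032) without that library. Of 11 estrogen-responsive genes tested, *Esr1* among them, 2 rose in males (*Igfbp4*, 2.38, and *Susd3*, 1.48) and 1 fell there (*Esr1*), while 1 rose in females (*Igfbp4*, 1.89), and the median was 0.07 in males and -0.02 in females.

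Across all genes, rises outnumbered falls. Of 16931 genes tested in males, 632 rose and 85 fell at 1 week (4.23% called, 3.73% higher and 0.502% lower). Of 16956 tested in females, 474 rose and 46 fell (3.07% called, 2.80% higher and 0.271% lower), and without uninduced replicate 3 the counts were 560 and 105 (3.93% called). The median log2 fold change over all genes was 0.01 in males and -0.02 in females. Separate from these calls, all 1-week libraries lay above all uninduced ones for 15.1% of male and 8.96% of female genes and below for 10.4% and 5.80%, and single-gene statements on overlap should be read against these shares.

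The changes of the 2 sexes ran together across genes. Over the 16627 genes tested in both tables, the male and female log2 fold changes had a Pearson r of 0.770 and a Spearman rho of 0.614 (no libraries are shared, and genes are not independent replicates). Genes that rose in both numbered 377, which is 59.9% of the male and 79.7% of the female rises tested in both. Genes that fell in both numbered 24, or 28.6% and 52.2% of the falls, and no gene was called in opposite directions. Without female uninduced replicate 3, r was 0.803 and 432 genes rose and 39 fell in both. The genes called in males changed by a median of 1.29 in size in males and by 1.11 in the male direction in females. They were chosen on the male values, which raises the male median, so this pair does not compare the sexes. When the difference between the male and the female change was tested itself, limma called 0 of the 16627 genes, with a lowest adjusted p of 0.152. At an unadjusted p under 0.05 there were 1418 genes (8.53%) by limma, 1434 by edgeR and 1453 by DESeq2. *Penk*, the proenkephalin gene, came closest. It was at 2.21, 2.43, 2.58 and 2.84 CPM in uninduced and 0.10, 0.184, 0.133 and 0.674 in 1-week males, and at 0.619, 1.08, 0.573 and 1.58 and 0.285, 0.707, 0.627 and 0.781 in females, so that it fell by 2.02 in males beside -0.38 in females. It passed the test of the difference only in fits that left out male 1-week replicate 4, female uninduced replicate 4 or female 1-week replicate 1.

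**Figure D1:**
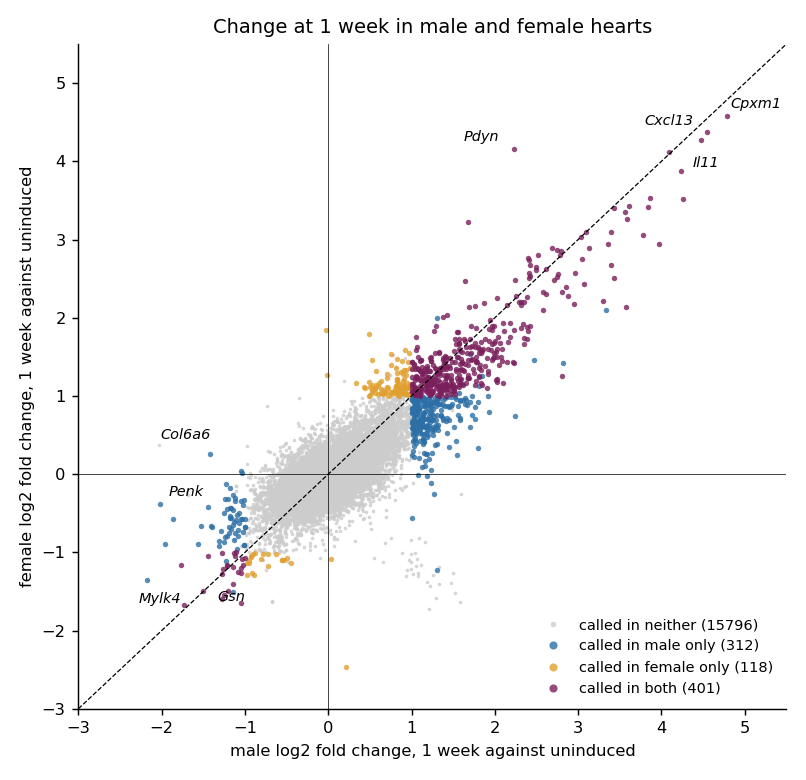
Log2 fold change at 1 week against uninduced hearts for the 16627 genes tested in both tables, male on the x axis and female on the y axis. Points are coloured by whether the gene was called (past both the p threshold and the minimum fold) in neither sex, in males only (312), in females only (118) or in both (401), and the dashed line marks equal change. The genes called in both sexes lie in the upper right and lower left, and the scatter at the lower right, near 1 for males and -1 for females, holds the liver transcripts described at the end.

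Feedback inhibitors and other targets of STAT3 rose in part. Of 18 tested, 8 rose in males and 4 in females (5 without female uninduced replicate 3), with medians of 0.74 and 0.42. *Socs3*, which encodes the inhibitor of gp130 signaling, was at 26.7, 11.9, 10.1 and 8.28 CPM in uninduced and 88.4, 66.8, 80.5 and 81.5 in 1-week males (2.57, standard error 0.23, adjusted p = 2.7e-07). In female hearts there were 6.42, 13.8, 56.1 and 7.28 and 55.5, 71.9, 66.1 and 54.1 CPM (2.1, standard error 0.39, adjusted p = 0.00094). The male groups were apart, and the female groups overlapped through uninduced replicate 3 alone, without which the change was 2.76. *Il4ra*, a cytokine receptor chain, rose by 2.02 and 1.60. *Bcl3*, a cofactor of NF-κB, rose by 1.11 and 1.31, and *Socs1* by 1.19 and 1.2. *Myc*, *Junb*, *Cebpd* and *Batf*, all transcription factors, rose in males only by the threshold, by 1.76, 1.25, 1.26 and 1.02. The female values were 0.86, 0.50, 0.58 and 0.30, of which *Myc* passed (1.25) without uninduced replicate 3. The other 10 genes, among them *Socs2*, *Cish* and *Pim1*, were called in neither sex.

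Promoters of the genes that rose in both sexes were read for the STAT-type site TTCNNNGAA in the 250 bases before the start of the Ensembl canonical transcript. The site is a palindrome and reads the same on both strands. It was present in 37 of 354 such promoters (10.5%), in 1 of 21 promoters of genes that fell in both (4.76%) and in 898 of all 13605 protein-coding promoters (6.6%). The stricter TTCCNGGAA, which is contained in it, was in 3 (0.847%), 0 and 147 (1.08%). The windows of 4 genes are shown, an acute phase gene with 3 matches, 2 chemokine genes of the chromosome 11 cluster with 1 match each, and *Cpxm1*, which had the largest rise on the log2(CPM + 0.5) scale and held no match. Matches are in capitals. Sequences are GRCm39, 5′ to 3′ on the strand of the gene: *A2m* chr6:121612928-121613177 (plus), *Ccl2* chr11:81926147-81926396 (plus), *Ccl12* chr11:81992395-81992644 (plus) and *Cpxm1* chr2:130239874-130240123 (minus). Counted back from the start site, the matches began at -154, -89 and -58 in *A2m*, at -151 in *Ccl2* and at -236 in *Ccl12*. The windows overlap no annotated exon, and that of *A2m* lies in an intron of 1 other *A2m* transcript. A match of letters is a description of the window and says nothing on binding in these hearts.
A2m: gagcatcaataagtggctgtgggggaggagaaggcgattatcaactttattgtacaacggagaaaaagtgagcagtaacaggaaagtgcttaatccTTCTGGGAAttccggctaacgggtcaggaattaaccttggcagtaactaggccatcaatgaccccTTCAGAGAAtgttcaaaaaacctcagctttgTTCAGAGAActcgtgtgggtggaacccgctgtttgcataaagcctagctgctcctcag
Ccl2: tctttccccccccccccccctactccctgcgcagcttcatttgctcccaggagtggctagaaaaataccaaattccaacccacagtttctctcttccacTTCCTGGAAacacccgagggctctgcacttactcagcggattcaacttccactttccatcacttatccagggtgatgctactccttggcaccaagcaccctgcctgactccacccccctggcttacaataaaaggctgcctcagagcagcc
Ccl12: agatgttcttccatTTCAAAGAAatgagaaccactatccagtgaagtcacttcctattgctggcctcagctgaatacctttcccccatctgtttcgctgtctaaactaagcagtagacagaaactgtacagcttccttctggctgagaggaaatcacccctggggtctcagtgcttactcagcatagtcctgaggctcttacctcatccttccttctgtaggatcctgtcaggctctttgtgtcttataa
Cpxm1: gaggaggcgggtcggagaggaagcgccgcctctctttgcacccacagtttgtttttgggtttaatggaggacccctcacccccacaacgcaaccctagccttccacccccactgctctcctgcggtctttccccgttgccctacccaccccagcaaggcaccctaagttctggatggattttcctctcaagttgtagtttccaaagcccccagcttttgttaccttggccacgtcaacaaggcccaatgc

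Many acute phase genes, which the liver secretes in inflammation, rose in the heart libraries. Of 23 tested, 15 rose in males and 10 in females (12 without female uninduced replicate 3), with medians of 1.33 and 1.48. The list was not uniform. The fibrinogen gene *Fgb* was at -1.40 in females (adjusted p = 0.11), and fell by 1.73 (adjusted p = 0.042) without that library. Both edgeR and DESeq2 called 1 gene lower in males and 2 in females. The acute phase genes *Fga*, *Fgg* and *Hpx* are among the hepatocyte genes described at the end, higher in males and lower in females. The part of liver RNA in these counts and medians, and in the lower female *Fgb*, was not tested. *Serpina3n*, a serine protease inhibitor, was at 256, 87.2, 77.1 and 69.9 CPM in uninduced and 1477, 1539, 1377 and 766 in 1-week males (3.56, standard error 0.31). Female libraries held 57.8, 101, 421 and 78.4 and 979, 1465, 1306 and 1126 CPM (3.35, standard error 0.38). Every 1-week library lay above every uninduced one of its sex, and uninduced replicate 1 in males and replicate 3 in females were the highest of their groups. *Hp*, haptoglobin, which binds free hemoglobin, was at 4.91 to 8.36 CPM in uninduced and 45.2 to 136 CPM in 1-week males (3.58) and at 1.13 to 5.42 and 25 to 49.5 CPM in females (3.27). *Saa3*, a serum amyloid A made outside the liver, was at most 0.148 CPM in uninduced males and 0.705 in uninduced females, and at 1.67 to 19.4 and 4.01 to 12.3 CPM at 1 week. *A2m*, the protease inhibitor whose promoter is shown above, was at 0.406, 0.415, 0.115 and 0.101 CPM in uninduced and 0.937, 4.80, 3.52 and 1.5 in 1-week males (1.91, adjusted p = 0.0063). Female hearts held 0.476, 0.455, 0.529 and 0.728 and 2.28, 2.57, 2.05 and 2.82 CPM (1.48, adjusted p = 0.0058), and the groups were apart in both sexes. *Timp1*, an inhibitor of matrix proteases, rose by 3.58 and 2.14. *Lcn2*, lipocalin 2, and *Lrg1* show the weight of 1 library: they rose in males by 3.33 and 1.64, while in females *Lcn2* was at 2.09 (adjusted p = 0.07) and *Lrg1* at 0.89 (adjusted p = 0.25). Female uninduced replicate 3 held 78.8 CPM of *Lcn2* and 403 CPM of *Lrg1*, above every 1-week library. Without it *Lcn2* rose by 3.26. The *Lrg1* difference was 1.74 without it, given without a call since high *Lrg1* helped to single that library out. A call of *Lrg1* in the count of 12 without that library is no separate support either.

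Complement genes rose together in both sexes. Of 22 tested, 14 rose in males and 18 in females (17 without female uninduced replicate 3), with medians of 1.32 and 1.37. *C3*, on which all activation routes converge, was at 605, 325, 357 and 364 CPM in uninduced and 1329, 1613, 1815 and 1189 in 1-week males (1.87, standard error 0.18). In females it was at 293, 374, 439.9 and 448 and 1814, 1971, 1805 and 1429 CPM (2.18, standard error 0.21), and neither sex overlapped. *Cfi*, the protease that inactivates C3b and C4b, rose most of the list, from 2.77, 0.741, 0.516 and 0.456 to 22.3, 38.1, 30.4 and 17.9 CPM in males (4.24). Its female values were 0.761, 1.31, 1.90 and 0.890 and 20.1, 28.4, 26.3 and 22 CPM (3.88). The classical pathway proteases *C1ra* and *C1s1* rose by 1.64 and 1.26 in males and 1.71 and 1.40 in females. Among regulators, the soluble inhibitor *Serping1* (1.38 and 1.34) rose. The membrane-bound regulators *Cd55* (0.26 and 0.51) and *Cd59a* (-0.18 and -0.07) did not pass. *C4b*, cleaved early in the classical pathway, was at 187, 127, 112 and 125 CPM in uninduced and 172, 293, 324 and 264 in 1-week males, which overlap (0.92, adjusted p = 0.0015). The female libraries held 78.4, 78.4, 79.5 and 106.1 and 219.5, 350.0, 259.7 and 213 CPM and were apart (1.58, adjusted p = 1.3e-06). *C4a* is a near copy of *C4b*, and the counting may have split reads between them. *C7*, of the membrane attack complex, behaved alike, with 0.49 (adjusted p = 0.13) in males and a rise of 1.79 in females. The difference between the sexes was not called for any of these genes.

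Chemokines rose for 12 of 21 tested genes in males and 11 of 22 in females, with medians of 1.12 and 1.08. *Cxcl13*, which attracts B cells, was at 0.369, 0.0889, 0.0574 and 0 CPM in uninduced and 8.27, 20.01, 25.2 and 8.65 in 1-week males (4.54, standard error 0.27). In females the values were 0.0476, 0.0569, 0.0441 and 0.202 and 8.86, 14.5, 14.1 and 9.85 CPM (4.37, standard error 0.21), and since the uninduced levels lie below the pseudocount these fold changes understate the change. The monocyte attractants *Ccl2*, *Ccl7*, *Ccl8* and *Ccl12* rose in both sexes. *Ccl8* went from 2.14, 0.534, 0.918 and 0.380 to 12.6, 26.4, 16.2 and 25.6 CPM in males (3.87) and from 0.952, 0.398, 3.39 and 1.29 to 21.9, 22.6, 15.6 and 18.8 CPM in females (3.53). *Ccl12* rose by 3.07 and 2.43, *Ccl7* by 2.31 and 1.88, and *Ccl2* by 1.12 and 1.25. *Ccl19*, a ligand of CCR7, rose by 2.61 and 2.62. *Cxcl12*, the retention signal for progenitors, stayed under the minimum fold with 0.53 and 0.49 (adjusted p = 0.015 and 0.024).

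Cytokines of the IL-1, IL-6 and TNF families rose for 5 of 13 tested genes in each sex. *Il33*, an alarmin stored in the nuclei of stromal and endothelial cells, was at 12.7, 6.26, 3.10 and 3.12 CPM in uninduced and 125, 156, 136 and 58.2 in 1-week males (4.26). The female values were 9.52, 7.29, 43.7 and 9.18 and 124, 210.2, 157 and 140.2 CPM (3.52, or 4.09 without uninduced replicate 3). *Tnfsf11*, which encodes RANKL, was at no more than 0.295 CPM in uninduced males and 0.838 in uninduced females and at 5.95 to 9.74 and 4.10 to 6.58 CPM at 1 week. *Tnfsf8* rose by 2.78 and 2.80, *Tnfsf13b* by 1.34 and 1.35, and *Il6* by 2.02 and 1.21, with 1-week levels of 0.974 to 5.22 and 0.669 to 1.53 CPM. *Il1b* was at 0.553 to 2.98 and 0.477 to 1.53 CPM at 1 week and did not pass (0.43 and 0.25). *Il1a*, *Tnf*, *Lif* and *Osm* were not among the genes tested.

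**Figure D2:**
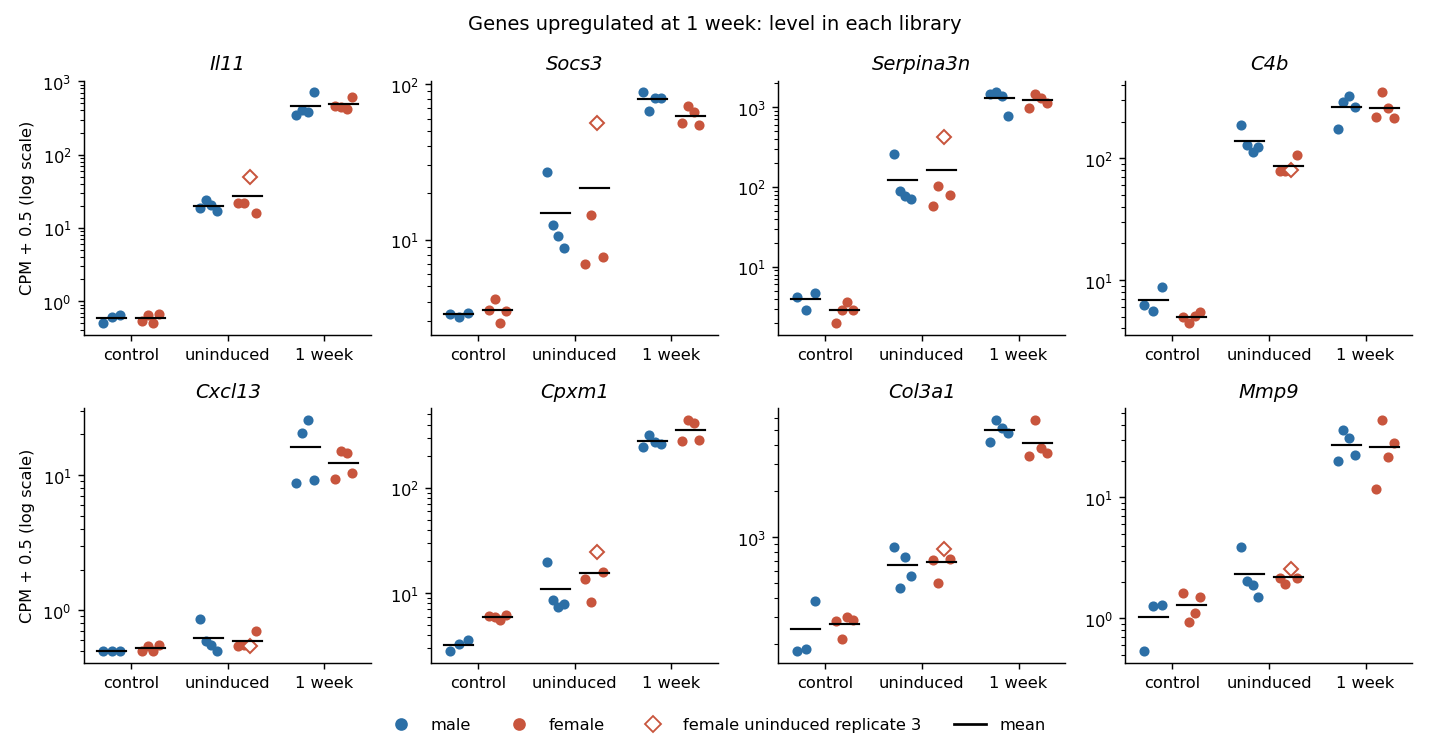
Level of 8 genes in each library of control, uninduced and 1-week hearts, in CPM + 0.5 on a log axis, with males in blue, females in red, the group mean as a black bar and female uninduced replicate 3 as an open diamond. *Il11*, *Serpina3n* and *C4b* are already above control in uninduced hearts, *Cxcl13*, *Cpxm1* and *Mmp9* make their larger step between uninduced and 1 week, and the open diamond is the highest female uninduced point for *Il11*, *Socs3* and *Serpina3n*.

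On the log2(CPM + 0.5) scale the largest rise in both sexes was that of *Cpxm1*, which encodes a secreted carboxypeptidase-like protein (chromosome 2, from 130232695 to 130239873, minus strand). It was at 19.2, 8.03, 6.94 and 7.47 CPM in uninduced and 245, 321, 274 and 262 in 1-week males (4.78, standard error 0.25, adjusted p = 3.7e-10). Female libraries held 13.3, 7.74, 23.9 and 15.4 and 279.9, 442, 412 and 285 CPM (4.59, standard error 0.26, adjusted p = 3.7e-10), and the groups did not overlap in either sex. The pseudocount bears on this rank, since the ratio of group means was 26.5 and 23.5 for *Cpxm1* and 121 and 135 for *Cxcl13*. *Chl1*, a neural cell adhesion molecule, rose, and was at 0.860 to 1.92 CPM in uninduced and 21 to 50.3 CPM in 1-week males (4.09) and at 0.850 to 3.00 and 28.8 to 48.0 CPM in females (4.12). *Ptx3*, a soluble pattern recognition protein, rose by 3.97 and 2.95. *Prg4*, lubricin, rose by 3.43 and 3.40, with male 1-week replicate 4 at 72.5 CPM below the other three at 246 to 296. *Pdyn*, the prodynorphin gene, was at 1.00, 3.46, 1.96 and 1.84 CPM in 1-week males and 3.52, 24.6, 8.57 and 9.02 in 1-week females and was read in 1 uninduced library of each sex, at 0.0738 and 0.176 CPM, so no fold is given.

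Matrix genes rose in number. Of 30 glycoproteins, proteoglycans and crosslinking enzymes, 20 rose in males and 16 in females, with medians of 1.24 and 1.02. *Fn1*, fibronectin, was at 72.6, 55.9, 58.7 and 67.8 CPM in uninduced and 522, 664, 535 and 204 in 1-week males (2.79). In female hearts there were 77.2, 60.9, 85.7 and 65.0 and 459, 788, 500.1 and 404 CPM (2.85), with no overlap in either sex and male 1-week replicate 4 the lowest of its group. *Lox*, which crosslinks collagen, rose by 3.09 and 3.10, *Ccn5*, a matricellular protein, by 3.40 and 3.10, and *Comp* by 2.88 and 2.28. Of 18 collagen genes, 9 rose in males and 8 in females. *Col3a1*, a chain-forming gene of fibrillar type III collagen, was at 858, 466, 736 and 557 CPM in uninduced and 4200.4, 5831, 5153 and 4778 in 1-week males (2.96, standard error 0.24). Its female values were 702, 499, 834 and 715 and 3395, 5791, 3816 and 3522 CPM (2.58, standard error 0.20). *Col1a1* and *Col1a2* of type I collagen rose by 2.61 and 2.31 in males and 2.30 and 2.17 in females. The fibril-associated *Col14a1* rose by 2.18 and 1.93. The basement membrane genes were not called: *Col4a1* was at 585 to 875 CPM in uninduced and 582 to 794 in 1-week males (-0.13), and its female 1-week libraries, at 524 to 655 CPM, all lay below the uninduced ones at 728 to 811 (-0.44, adjusted p = 0.083). Its partner *Col4a2* was at -0.17 and -0.50.

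Matrix proteases and their inhibitors moved in both directions. Of 25 tested in males and 26 in females, 10 and 8 rose and 1 fell in each. *Mmp9*, gelatinase B, was at 3.39, 1.54, 1.38 and 0.988 CPM in uninduced and 19.4, 35.3, 30.4 and 21.8 in 1-week males (3.61). Female hearts held 1.67, 1.42, 2.07 and 1.66 and 11.2, 43.2, 21.2 and 27.5 CPM (3.43). *Mmp3*, stromelysin 1, rose by 3.36 and 2.94, with uninduced replicate 1 in males (32.5 CPM) and replicate 3 in females (66.3 CPM) above the other uninduced libraries. The gene that fell was *Timp4*, the cardiac inhibitor of matrix proteases. It was at 30.3, 25.3, 39.4 and 36.7 CPM in uninduced and 10.04, 10.1, 12 and 24.2 in 1-week males (fell by 1.27, adjusted p = 0.037). In females it was at 33.4, 25.9, 40.2 and 55.9 and 14.2, 10.6, 12.3 and 11.4 CPM (fell by 1.59, adjusted p = 0.00016). No library overlapped, and *Timp1* of the same family rose, as given above.

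Fibroblast markers did not move as one. Of 14 tested, 6 rose and 2 fell in males and 3 rose and 1 fell in females. In such bulk libraries fewer cells of a type and less RNA per cell cannot be told apart. *Pi16*, of adventitial fibroblasts, rose by 1.95 and 1.59, and *Dpt*, dermatopontin, by 1.22 and 1.22. *Pdgfra* and *Dcn*, widely used markers, were higher by 0.88 and 0.94 in males and 0.87 and 0.99 in females, under the minimum fold. *Gsn*, the actin-severing protein gelsolin, fell: it was at 762, 825, 899 and 858 CPM in uninduced and 413, 230.4, 298 and 489 in 1-week males (-1.28, standard error 0.18). The female libraries held 971, 1028, 888 and 1414 and 378, 516, 456 and 408 CPM (-1.28, standard error 0.16). *Abca8a*, a lipid transporter, fell by 1.19 in males and was at -0.76 in females, or -1.01 and past the threshold without uninduced replicate 3. Of 13 markers of activated fibroblasts, 7 rose in males and 3 in females. *Cthrc1* rose by 2.58 and 2.32. *Postn*, periostin, was at 47.1, 35.8, 48.4 and 38.5 CPM in uninduced and 225, 271, 172 and 48.2 in 1-week males (1.82), where replicate 4 at 1 week lay within the uninduced range. Its female values were 55.2, 34.4, 43.3 and 54.9 and 119.7, 224, 105 and 79.5 CPM (1.40) with no overlap. *Acta2*, the smooth muscle actin of myofibroblasts, was at -0.33 and -0.74 and passed in neither sex, but fell (-1.05) in females without uninduced replicate 3.

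Macrophage markers rose for 12 of 19 genes in males and 14 in females, with medians of 1.31 and 1.13. *Cd68*, a lysosomal protein, was at 6.08 to 8.19 CPM in uninduced and 12.5 to 24.2 CPM in 1-week males (1.31) and at 8.94 to 12.6 and 21.5 to 25.8 CPM in females (1.12). *Lyz2* rose by 1.34 and 1.27, and *C1qa*, of the first complement component, by 1.49 and 1.12. *Ccr2*, the receptor for *Ccl2* on monocytes and their descendants, was at 1.51, 1.22, 1.84 and 1.85 CPM in uninduced and 6.70, 8.53, 8.74 and 4.64 in 1-week males (1.84). Female libraries held 1.57, 2.5, 1.85 and 1.86 and 8.93, 11.9, 4.73 and 5.59 CPM (1.69). Genes used to mark resident cardiac macrophages were mixed: *Folr2* rose (1.07 and 1.63), while *Timd4* (0.33 and 0.79) and *Cd163* (0.07 and 0.63) were under the minimum fold and the efferocytosis receptor *Mertk* was at -0.01 and 0.11. Of the monocyte markers, 6 of 8 rose in males and 5 of 7 in females, with *Plac8* at 2.86 and 2.39, whereas *Ly6c2* was at 0.52 and -0.11. Both lists hold *Ccr2*, the macrophage list shares *C1qa* and its partners with the complement list, and the monocyte list holds *Fn1*, a matrix gene described above.

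Other leukocytes were read by shorter lists. Of 13 neutrophil markers 5 were tested, and 2 rose in each sex, *Mmp9* and *S100a9* (1.18 and 1.2, 1-week levels of 0.524 to 1.67 and 0.818 to 2.38 CPM). At an adjusted p under 0.05 alone, 4 neutrophil markers were higher in males and 5 in females, and edgeR called 4 in each sex. Their medians were 1.00 and 0.95 by limma on the log2(CPM + 0.5) scale and 2.25 and 1.94 by edgeR. The filter counts libraries of every group, so genes near 0 in uninduced hearts can enter through groups where they are high, which pushes such medians up. The summed level of the neutrophil list was 2.94 to 5.13 CPM in uninduced males, and *Mmp9* is also described among the matrix proteases. The granule genes *Camp*, *Ngp*, *Ltf*, *Elane* and *Mpo* were not among the genes tested. Of 5 mast cell genes, 2 rose in males, and 4 rose and 1 fell in females (2 rose and 1 fell without female uninduced replicate 3). The chymase *Cma1* rose by 1.57 and 1.73, while the stem cell factor receptor *Kit* was at 4.54, 6.17, 6.48 and 5.85 CPM in uninduced and 3.05, 2.72, 3.56 and 2.21 in 1-week males (-0.89, adjusted p = 0.0041). In females *Kit* fell by 1.29, with 4.33 to 7.99 CPM in uninduced and 1.25 to 2.99 CPM in 1-week hearts. For T and NK cells, 1 of 8 genes rose in males and 1 of 10 in females, in each case *Cd4* (1.61 and 1.15), which macrophages can express too. The T cell receptor gene *Cd3g* was at 0.34 and 0.26. Of 16 MHC class I and II genes 0 were called in either sex by limma, and medians were 0.57 and 0.32. Unadjusted p was under 0.05 for 14 of these genes in males and 7 in females, all higher, where the share over all genes was 32.0% and 25.8%, and edgeR and DESeq2 called 0 as well.

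**Figure D3:**
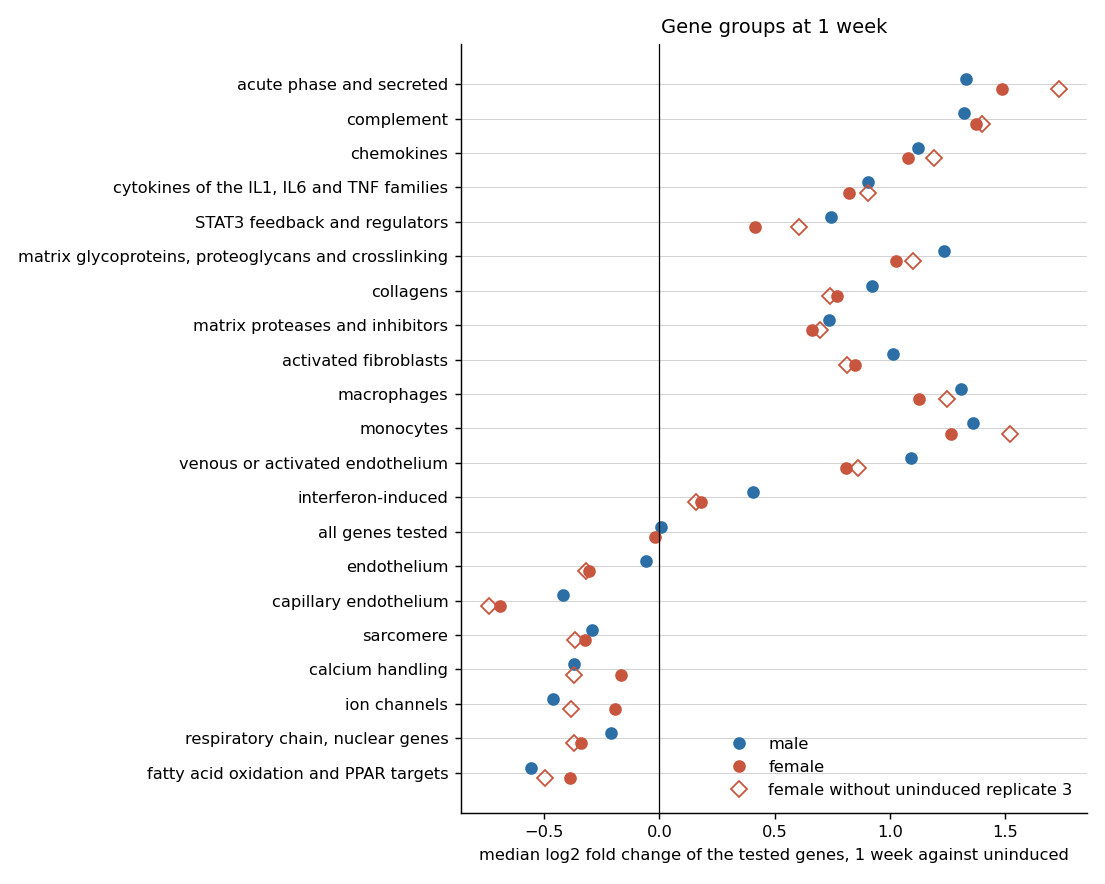
Median log2 fold change at 1 week against uninduced hearts over the tested genes of 20 gene groups and over all genes, for males (blue), females (red) and females without uninduced replicate 3 (open diamonds). Secreted, complement, matrix and macrophage groups lie near or above 1 in males, capillary, ion channel and fatty acid oxidation groups lie below 0, and all genes tested lie at 0.01 and -0.02.

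Endothelial genes moved in both directions. Of 11 genes of venous or activated endothelium 6 rose in males and 4 in females, while of 12 capillary genes 2 fell in each sex. No capillary gene was higher at an unadjusted p under 0.05 by limma, nor called higher by edgeR or DESeq2. *Selp*, P-selectin, the adhesion molecule that captures leukocytes, was at 1.18, 0.504, 0.344 and 0.228 CPM in uninduced and 10.3, 10.2, 11.7 and 3.82 in 1-week males (3.13). In female hearts there were 0.809, 0.683, 5.82 and 0.445 and 10.7, 18.4, 11.2 and 10.7 CPM (2.89), with no overlap in either sex. *Sele* rose by 1.42 and 1.25, *Vcam1* by 1.56 and 1.5, and the venular chemokine receptor *Ackr1* by 2.01 and 1.56. *Plvap*, of fenestrated and venous endothelium, rose by 1.84 and 1.14. *Car4*, a carbonic anhydrase on the capillary surface, was at 16.3, 19.5, 22.3 and 26.7 CPM in uninduced and 11.3, 8.53, 7.88 and 9.25 in 1-week males (fell by 1.14, standard error 0.18). In females it was at 23.0, 21.3, 23.2 and 21.6 and 7.83, 7.59, 8.70 and 8.28 CPM (fell by 1.41, standard error 0.15). The other capillary gene that fell was *Timp4*. At an adjusted p under 0.05 alone, 5 of the 12 capillary genes were lower in males and 10 in females, where the share of all genes was 6.66% and 4.26%. *Kdr*, the main VEGF receptor, was among them at -0.65 and -0.69. Lower levels were not limited to the capillary list. Of 18 genes used as markers of all endothelium, *Kdr* among them, 2 were lower in males and 7 in females at an adjusted p under 0.05, with medians of -0.06 and -0.30, and 12 were lower in females at an unadjusted p under 0.05. Past the minimum fold, 1 rose in each sex (*Plvap*), and limma, edgeR and DESeq2 called 0 lower. *Tie1*, a receptor kinase of endothelial cells, was at -0.18 and -0.75 (adjusted p = 0.36 and 8.7e-07), and the adhesion gene *Pecam1* at -0.05 and -0.26 (adjusted p = 0.83 and 0.17). *Apln*, the apelin gene of angiogenic tip cells, fell by 1.45 and 1.05, and *Bcl6b*, an endothelial transcription factor, by 1.05 and 1.27.

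Some genes of cardiac wall stress passed the threshold. Of 18 stress genes tested, 2 rose in males and 1 in females, or 3 in females without uninduced replicate 3. Over all genes 4.23% were called in males and 3.07% in females, or 3.93% in females without that library. High *Ankrd1* helped to single that library out, so a call of *Ankrd1* within the 3 is no separate support. The medians of the 18 stress genes were 0.44 in males and -0.14 in females. At an unadjusted p under 0.05 by limma, 9 were higher and 0 lower in males, and 1 was higher and 3 were lower in females. The share over all genes, in either direction, was 32.0% and 25.8%. *Nppa*, atrial natriuretic peptide, was at 135, 27.5, 38.5 and 28.6 CPM in uninduced and 870.0, 494, 429 and 220.4 in 1-week males (3.30, standard error 0.52). Female libraries held 17.8, 46.3, 71.8 and 33.7 and 243, 202, 231 and 85.0 CPM (2.21, standard error 0.59), and the groups were apart in both sexes. *Nppb*, its ventricular relative, was at 0.84 (adjusted p = 0.15) and 0.59 (adjusted p = 0.35), with male 1-week replicate 1 at 646 CPM against 122 to 234 in the other three. *Ankrd1*, a stretch-responsive nuclear protein, was at 2537, 1185, 908 and 784 CPM in uninduced and 4928, 2952, 2756 and 3289 in 1-week males (1.49). The female values were 373, 819, 4764 and 726 and 2482, 1991, 2249 and 1145 CPM (0.90), with uninduced replicate 3 the highest of all 8, and 1.64 without it. *Myh7* and *Acta1*, the fetal myosin and actin genes, passed in neither sex (0.59 and 0.36 for *Myh7*, 1.59 and -0.26 for *Acta1*). *Myh6* was at -0.61 (adjusted p = 0.13) and -0.42 (adjusted p = 0.33).

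Among genes with at least 5 CPM in the higher group, the largest fall in males on the log2(CPM + 0.5) scale was that of *Mylk4*, a myosin light chain kinase of cardiomyocytes (chromosome 13, from 32884810 to 32968052, minus strand). It was at 82.2, 109, 83.6 and 126 CPM in uninduced and 26.6, 23.2, 25.5 and 13.3 in 1-week males (-2.18, standard error 0.26, adjusted p = 8.3e-06). Females held 112, 105.8, 12 and 166 and 35.0, 18.5, 35.1 and 23.9 CPM (-1.35, adjusted p = 0.093), and uninduced replicate 3 lay below every 1-week library. Without it the female difference was -2.18, given without a p-value since low *Mylk4* helped to single that library out. The kelch-like gene *Klhl33* and the ubiquitin ligase gene *Trim7* fell in both sexes, by 1.08 and 1.05 in males and 1.24 and 1.2 in females. *D630003M21Rik* fell too (-1.73 and -1.67), and *Papln*, which encodes the matrix protein papilin, by 1.5 and 1.49. *Nes*, nestin, fell by 1.25 and 1.54, with 1-week levels of 20.2 to 42.7 and 12.5 to 24.2 CPM against 58.7 to 71.1 and 42.7 to 77.9 in uninduced hearts. In females *mt-Ti*, a mitochondrial tRNA, was among the largest falls (-1.27), beside -0.91 in males. Among the largest falls in males were also *Scd4*, *Gpr22*, *Inka2*, *Vwa3a* and *Col6a6*, which fell by 1.28 to 1.53. Of these only *Vwa3a* was called in females (-1.01), and *Col6a6* had the opposite sign there (0.25, adjusted p = 0.75). Without uninduced replicate 3 *Vwa3a* was no longer called in females (-0.99) and *Scd4* was (-1.24).

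Cardiomyocyte markers were lower by small steps. The summed level of 12 cardiomyocyte markers was 72505 to 77322 CPM in uninduced and 43905 to 69111 CPM in 1-week males, without overlap, and 51165 to 65839 and 41651 to 57126 CPM in females, where the groups overlapped. Their median change was -0.29 and -0.34, with 2 lower in males and 3 in females at an adjusted p under 0.05, and limma, edgeR and DESeq2 called 0. Unadjusted p was under 0.05 by limma for 5 of the 12 in males and 6 in females, all lower. Over all genes 32.0% and 25.8% passed an unadjusted p under 0.05, in either direction. At an adjusted p under 0.05, 6.66% of all genes were lower in males and 4.26% in females. For 21 sarcomere genes, some of them shared with that list, the medians were -0.29 and -0.32, with 4 lower at an adjusted p under 0.05 in each sex and 1 that fell in males (*Mylk4*). The part of these levels in the values that follow was not tested.

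Ion channel and calcium handling genes were lower by small steps. Of 25 ion channel genes, 13 were lower in males and 4 in females at an adjusted p under 0.05 (12 without female uninduced replicate 3). The share of all genes was 6.66% and 4.26%, and 7.10% without that library, and the same shares stand beside the counts of lower genes below. *Kcnip2*, the subunit that sets the transient outward current, was at 104, 143, 140.2 and 132 CPM in uninduced and 58.8, 76.3, 67.3 and 87.0 in 1-week males (-0.84, adjusted p = 0.00056). Its female values were 123, 102, 36.4 and 152 and 62.7, 58.9, 73.6 and 70.9 CPM (-0.46, adjusted p = 0.3), and -0.90 (adjusted p = 5.8e-05) without uninduced replicate 3. *Kcnv2*, *Scn4a* and *Hcn4* fell in males by 1.56, 1.05 and 1.03, and the female values were -0.90, -0.35 and -0.40, of which *Kcnv2* passed (-1.16) without uninduced replicate 3. Higher levels were also seen. *Kcnq1*, of the slow delayed rectifier, was higher in all 8 1-week libraries than in the uninduced libraries of its sex (0.51 and 0.59, adjusted p = 0.0048 and 0.0098). Of 19 calcium handling genes, 8 were lower in males and 3 in females (6 without replicate 3) at an adjusted p under 0.05, and 2 fell in males, *Adra1a* (-1.2) and *Casq1* (-1.12). *Hrc*, a calcium buffer of the sarcoplasmic reticulum, was at -0.78 and -0.78, *Ryr2*, the release channel, at -0.57 and -0.27, and the pump *Atp2a2* at -0.37 and 0.02, all within the minimum fold. The adjusted p for *Ryr2* was 0.026 and 0.32, and for *Atp2a2* 0.24 and 0.96.

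**Figure D4:**
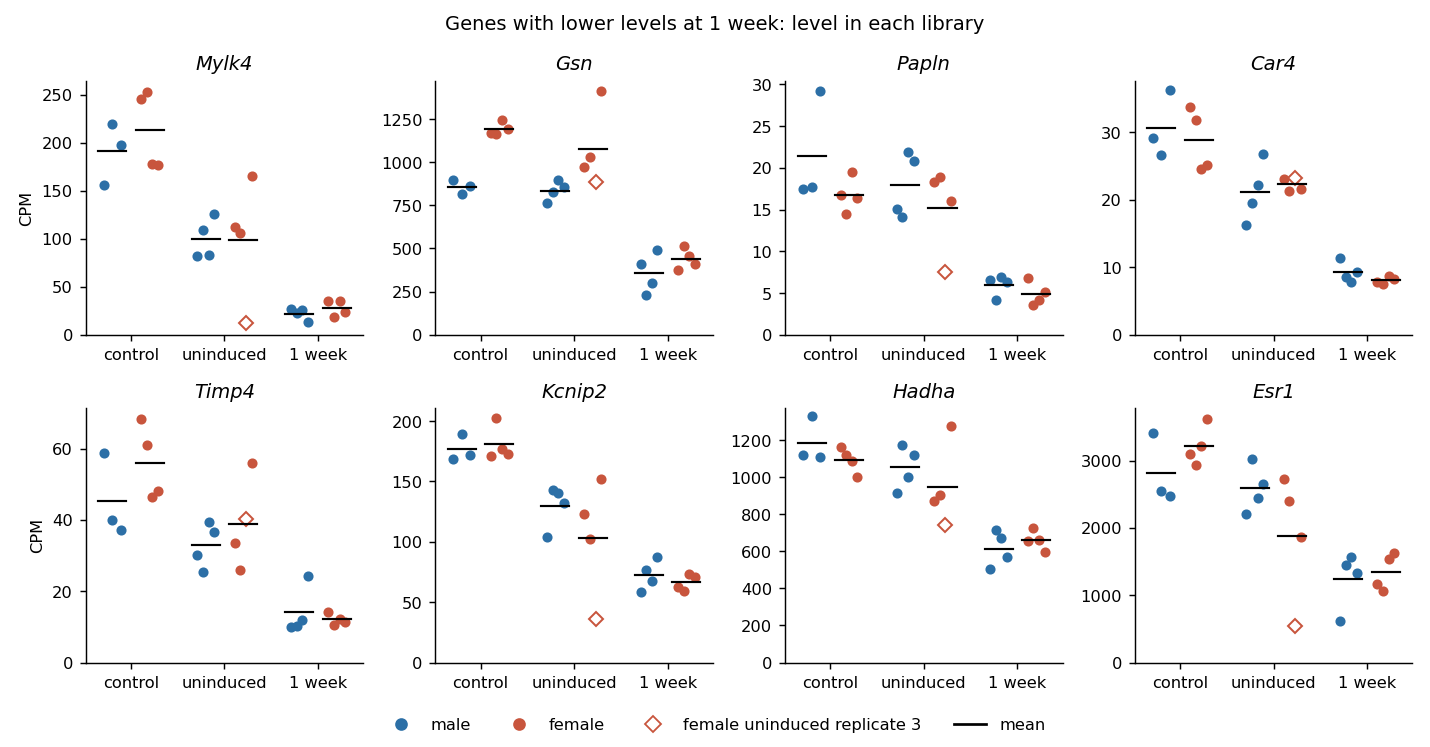
Level of 8 genes in each library of control, uninduced and 1-week hearts, in CPM on a linear axis that starts at 0, with males in blue, females in red, the group mean as a black bar and female uninduced replicate 3 as an open diamond. *Gsn*, *Papln*, *Car4* and *Timp4* separate 1-week from uninduced libraries in both sexes, and for *Mylk4*, *Kcnip2* and *Esr1* the open diamond lies below every female 1-week library.

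Genes of fatty acid oxidation, the main fuel route of the adult heart, were often lower, mostly by less than the minimum fold. Of 41 tested, 23 were lower in males and 14 in females at an adjusted p under 0.05, and 26 in females without uninduced replicate 3, with medians of -0.56 and -0.39. *Hadha*, a subunit of the mitochondrial trifunctional protein, was at 916, 1175, 1004 and 1118 CPM in uninduced and 503, 715, 674 and 568 in 1-week males (-0.78, adjusted p = 0.00026). In females it was at 873, 903, 742 and 1274 and 657, 724, 664 and 596 CPM (-0.50, adjusted p = 0.01), again without overlap. *Acadm*, the medium-chain dehydrogenase, was at -0.75 and -0.59, and *Cpt2*, of the carnitine shuttle, at -0.61 and -0.51. *Ppara*, the receptor that controls this set, was at 19.5 to 32.1 CPM in uninduced and 7.50 to 16.4 CPM in 1-week males (it fell by 1.23) and was at -0.13 in females (adjusted p = 0.86). One PPAR target went the other way. *Angptl4*, an inhibitor of lipoprotein lipase, rose in males, with 4.61 to 8.37 CPM in uninduced and 26 to 37.5 CPM in 1-week hearts (2.24), and in females it was at 0.74, or 1.11 and past the threshold without uninduced replicate 3. Nuclear genes of the respiratory chain were lower at an adjusted p under 0.05 for 7 of 33 in males and 16 of 33 in females, with medians of -0.21 and -0.34, and *Cox7a1*, a muscle form of a cytochrome oxidase subunit, fell in females (-1.10). The 13 protein genes of the mitochondrial genome had medians of -0.78 and -0.35. At an adjusted p under 0.05, 0 were lower in males and 1 in females by limma, and edgeR and DESeq2 called 0. At an unadjusted p under 0.05 by limma, 5 and 4 were lower, where 32.0% and 25.8% of all genes passed in either direction. *mt-Co1* was at 52508, 46469, 53155 and 17766 CPM in 1-week males, and its difference of -0.69 (adjusted p = 0.21) was -0.32 without replicate 4.

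Controls lack *Rosa26-Il11* and received tamoxifen, and uninduced hearts carry it and received none, so between these groups genotype and tamoxifen cannot be told apart. The labels do not give the time of collection of controls, so a difference in time cannot be set aside in any comparison with them. Between them 65 genes differed in males (0.384%) and 131 in females (0.773%), or 86 in females without uninduced replicate 3. At 1 week 1366 (8.07%) and 1246 (7.35%) differed from control. These comparisons share libraries with the 1-week comparison, so their values are only set side by side. For some genes the difference between control and uninduced hearts was the larger. *C4b* was at 5.07 to 8.29 CPM in male and 3.92 to 4.93 in female controls and differed by 4.33 and 4.11 between control and uninduced hearts, beside 0.92 and 1.58 between uninduced and 1-week hearts. *Pacsin1*, an adaptor in endocytosis, differed by 3.34 and 3.65 between control and uninduced hearts and by 0.44 and 1.11 between uninduced and 1-week hearts. *C3* differed by 2.33 and 2.99, then 1.87 and 2.18. *Serpina3n* was higher in both comparisons, by 4.78 and 5.42, then 3.56 and 3.35. For others the difference between uninduced and 1-week hearts was the larger. *Fn1* differed by 0.05 and 0.49 between control and uninduced hearts, *Cxcl13* by 0.30 and 0.15 and *Gsn* by -0.04 and -0.17, beside the larger changes at 1 week given above. *Pgk1*, a glycolytic enzyme, was highest in uninduced hearts. It was at 332, 289 and 305 CPM in male controls, 592, 630.0, 809 and 649 in uninduced and 427, 433, 432 and 545 in 1-week males, with differences of 1.11 (adjusted p = 2.9e-05) and -0.54 (adjusted p = 0.0025). In females the same levels were 346, 322, 329 and 355, 472, 494, 502 and 605 and 396, 406, 362 and 398 CPM, with differences of 0.61 (adjusted p = 0.00021) and -0.40 (adjusted p = 0.0026). *Gm13339* had the largest fall in females on the log2(CPM + 0.5) scale, with 15.1 to 23.7 CPM in controls, 101 to 151 in uninduced and 8.02 to 46.1 in 1-week hearts (fell by 2.47 at 1 week), while males spread over 7.92 to 118 CPM uninduced and 5.69 to 115 at 1 week (0.21).

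Transcripts of other tissues varied between libraries. Over the genes tested in both sexes, 32 were higher by more than 0.6 in males and lower by more than 0.6 in females, and 1 gene (*Cfd*) was the reverse. These limits were chosen after the values were seen. The 32 are hepatocyte genes, with 16 major urinary protein genes, 6 serpins of the *Serpina* cluster, *Alb*, *Apoa1* and *Ttr* among them, and 1 was called (*Serpina3k*, higher in males). *Alb*, serum albumin, was at 1.25, 1.93, 3.56 and 2.03 CPM in uninduced and 0.937, 25.4, 21.6 and 3.78 in 1-week males, and at 20.2, 23.6, 2.60 and 1.25 and 1.64, 1.12, 1.63 and 3.51 CPM in females. Replicates 2 and 3 of the male 1-week group and 1 and 2 of the female uninduced group were thus high, and for *Hp* these 2 male libraries, at 136 and 122 CPM, were also the highest. Male 1-week replicates 1 and 4, low in *Alb*, held 45.2 and 69.0 CPM of *Hp*, above the uninduced range of 4.91 to 8.36. The part of liver RNA in other results, the acute phase counts and *Fgb* among them, was not tested. Female 1-week replicate 2 held 52.3 CPM of *Myl7* and 67.0 CPM of *Myl4*, atrial myosin light chains, against at most 0.529 and 1.72 CPM in uninduced females. Its *Nppa*, at 202 CPM, lay within the range of the other 1-week females. Of the atrial markers, *Nppa* and *Clu*, clusterin (2.33 and 1.93), rose in both sexes and *Dkk3* in males (1.70), and none of these is made by atrial cells alone. *Sln* and *Bmp10* were not among the genes tested. Mesothelial transcripts varied too, with *Msln* at 0.148, 0.267, 0.172 and 0.177 CPM in uninduced and 0.134, 4.43, 6.45 and 0.524 in 1-week males and at 0.761, 3.70, 8.68 and 7.08 and 18.6, 7.18, 8.57 and 7.55 CPM in females, and 2 of 10 markers in males and 1 in females were called, *Dmkn* in both. Of 8 erythroid genes tested in females 1 rose, *Slc4a1* (1.03), and all 8 were higher at an unadjusted p under 0.05, with 3 called by edgeR and 6 by DESeq2. Without uninduced replicate 3 limma called 0 of the 8, with *Slc4a1* at 0.95. Of 7 tested in males 0 were called by limma, edgeR or DESeq2, and 0 had an unadjusted p under 0.05. The nuclear RNA *Malat1* was at 1206 to 1344 and 816 to 1092 CPM in males, and at 1147, 1239.6, 1197 and 236 and 981, 238, 625 and 565 CPM in females, with female uninduced replicate 4 and 1-week replicate 2 the lowest. Markers of p53 and of DNA damage, which tamoxifen-activated Cre can induce, were called by limma for 0 of 25 genes in either sex, with medians of -0.02 and -0.08. At an unadjusted p under 0.05 there were 7 in males and 6 in females, and edgeR and DESeq2 each called 1 in males and 0 in females.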

How the data were processed

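PolyA RNA from hearts was sequenced as paired 60 bp reads. The authors aligned reads with STAR to GRCm39 (Ensembl 106), counted genes with featureCounts and scaled with edgeR. The deposited values are the authors' CPM, 1 table for each sex, used as a signal, since each column is a count divided by 1 factor per library and keeps its own total. Whole reads were recovered for 100% of values (within 0.001 of a whole read) and gave the depths. Genes with at least 0.5 CPM in at least 3 libraries were tested with limma (version 3.58.1, R 4.3.3, with trend) on log2(CPM + 0.5), all assigned groups of a table in 1 fit and both tables in 1 fit for the difference between sexes, with Benjamini-Hochberg adjustment. edgeR 4.0.16 and DESeq2 1.42.0 on the recovered reads were alternatives. All 3 were run on simulated counts with the same dispersion for every gene and changes above the minimum fold planted in genes of at least 5 CPM. Such counts hold no libraries that stand apart, so they do not test calls that rest on these or changes near the minimum fold. *Il11* was also tested by exact permutation.

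Named genes were the 12 largest rises and falls per sex without overlap of groups and with a mean of at least 5 CPM in the higher group, plus list members by role and genes singled out after their values were seen (*Penk*, *Pgk1*, *Alb*, *Malat1* and *Serpina3k*). Some genes that this rule named are not reported here. The members compared and the gene lists were chosen with earlier results of these data known. Nothing in the labels says whether libraries of a group come from separate litters, and p-values measure the spread between these samples. Replicates of a group differed by more than sampling noise. Promoters were read from GRCm39 with GENCODE M39. The 2 male libraries whose labels and column names contradict each other were left out.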

Additional observations from a re-analysis of the deposited data

Results flagged for a closer look

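Among the genes named above, 47 of 616 groups of 4 libraries had 1 library apart from the other 3 by Dixon's ratio, where chance gives about 1 in 20. Values are in CPM, each beside the range of the other 3 libraries. Male uninduced replicate 1 was highest in its group for *C1ra* (45.9 against 26.2 to 28.1), *C1s1* (66.1 against 41.6 to 43.4), *Col14a1* (40.9 against 25.1 to 26.5), *Cpxm1* (19.2 against 6.94 to 8.03), *Lrg1* (79.8 against 42.9 to 46.3), *Mmp3* (32.5 against 11.6 to 12.2), *Pdyn* (0.0738 against 0 in each), *Serpina3n* (256 against 69.9 to 87.2) and *Tnfsf11* (0.295 against 0.0507 to 0.0593). Male 1-week replicate 4 was highest in its group for *Pgk1* (545 against 427 to 433). It was lowest for *Col14a1* (94.7 against 146 to 150.2), *Prg4* (72.5 against 246 to 296), *Selp* (3.82 against 10.2 to 11.7), *Serpina3n* (766 against 1377 to 1539) and *mt-Co1* (17766 against 46469 to 53155). Female uninduced replicate 3 was highest in its group for *Il33* (43.7 against 7.29 to 9.52) and *Pdyn* (0.176 against 0 in each). It was lowest for *Abca8a* (22.7 against 44.2 to 47.1), *Dkk3* (1.15 against 4.00 to 5.02), *Gpr22* (6.44 against 24.5 to 26.6), *Hcn4* (1.85 against 10.1 to 10.8), *Tie1* (120 against 135 to 137) and *Tnfsf13b* (0.926 against 1.42 to 1.5). Female 1-week replicate 2 was highest in its group for *Col14a1* (214 against 137 to 146), *Dkk3* (41.5 against 6.03 to 7.28), *Myl4* (67.0 against 0.962 to 2.17), *Myl7* (52.3 against 0.125 to 0.285), *Plvap* (53.7 against 28.7 to 30.9) and *Selp* (18.4 against 10.7 to 11.2). It was lowest for *Ccl12* (8.18 against 12.1 to 12.9) and *Kcnv2* (1.82 against 2.81 to 2.97). The other libraries were apart for fewer genes. Female 1-week replicate 1 was lowest for *Cxcl12* (194 against 291 to 315) and *mt-Ti* (14.0 against 20.1 to 21.5). Female 1-week replicate 4 was highest for *Cpt2* (143 against 125 to 126). Female uninduced replicate 1 was highest for *Dpt* (109 against 99.1 to 99.5). Female uninduced replicate 2 was lowest for *Vcam1* (12.8 against 17.2 to 17.9). Female uninduced replicate 4 was highest for *C4b* (106.1 against 78.4 to 79.5), *Cxcl13* (0.202 against 0.0441 to 0.0569) and *Jak1* (165 against 107 to 112) and was lowest for *Malat1* (236 against 1147 to 1239.6). Male 1-week replicate 1 was highest for *Il1b* (2.98 against 0.553 to 0.698) and was lowest for *Cpt2* (101 against 140.1 to 150.0) and *Klhl33* (4.99 against 12.1 to 13.9). Male 1-week replicate 2 was lowest for *Jak1* (114 against 127 to 129) and *Pdgfra* (45.2 against 52.2 to 52.8). Male uninduced replicate 3 was highest for *Il11ra1* (60.6 against 51.3 to 52.7) and *Il11ra2* (14.0 against 12.3 to 12.6).

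Titles and column names contradict each other for 2 male libraries, which were left out of every group and read only for *Il11*. The library titled as a male control at baseline, replicate 2, held 511 CPM, and its column name gives transgenic at 6 weeks. The one titled as a male transgenic at 6 weeks, replicate 2, held 0.597 CPM, and its column name gives wild type. Male controls held at most 0.147 CPM. Which of the labels is right was not tested.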

How the results depend on the processing

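The count of genes called at 1 week against uninduced hearts was 717 in males and 520 in females. With a pseudocount of 2 it was 365 and 280, without a minimum fold 3183 and 2133, with edgeR 1136 and 817 and with DESeq2 1176 and 849. Leaving out 1 library at a time gave 658 to 793 in males, 479 to 665 in females and 0 to 1 for the difference between sexes. Uninduced hearts against control gave 65 in males (39 with a pseudocount of 2, and 38 without control replicate 1 to 79 without control replicate 4) and 131 in females (234 with a pseudocount of 0.1, 62 with 2, 243 with edgeR, and 86 without uninduced replicate 3 to 188 without uninduced replicate 1). One-week hearts against control gave 1366 in males (757 with a pseudocount of 2, 2052 with edgeR, leave-one-out 1223 to 1540) and 1246 in females (707 with a pseudocount of 2, leave-one-out 1162 to 1286). *Il11* ranged from 4.25 to 4.59 in males and 4.06 to 4.61 in females as 1 library was left out.

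Replicate numbers did not pair the libraries. Deviations of same-numbered libraries had a mean correlation of 0.027 in males and -0.061 in females. With the replicate block, 720 and 528 genes were called at 1 week, 51 and 140 between uninduced and control, 1357 and 1249 between 1 week and control, and 0 in the difference between sexes. No gene or count named above turned its direction under any alternative where it was called. Results without female uninduced replicate 3 for single genes, for lists and for overlap between sexes, and counts per list by edgeR and DESeq2, were chosen after seeing the data. Low genes limit the fold changes, which the pseudocount of 0.5 shrinks. The filter counted libraries of every group, so the medians of lists with low genes lean towards genes that are high in some group.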
